A study of Rattus norvegicus with 12 samples.

Results

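Fibroblast-like synoviocytes (FLS) of rats with adjuvant arthritis (AA) were compared after culture with the lowest of 3 doses of taurochenodeoxycholic acid (TCDCA, 0.1 µM, group AT01) and after culture without it (group FCA). All FLS came from synovium of rats in which arthritis had been raised with complete Freund's adjuvant, and they were used at a low passage. FCA cells received DMEM alone, while AT01, AT1 and AT10 cells received TCDCA at 0.1, 1 and 10 µM for 12 h. Poly(A) RNA was sequenced in 12 libraries, 3 in each group, and 6 of them form the comparison described here. There was no group of healthy rats and no group with another bile acid among these libraries. The study calls the replicate numbers repeated sets of experiments and does not say whether they mark separate cultures or animals, so that a p-value measures only the spread between these libraries. The question was which genes differ at the lowest dose.

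TCDCA is the taurine conjugate of chenodeoxycholic acid, a primary bile acid made in the liver. Bile acids act on the nuclear receptor FXR (Nr1h4) and on the membrane receptor TGR5 (Gpbar1), which raises cAMP. FLS form the lining of the joint, where they make lubricin, hyaluronan and matrix, and in arthritis they release cytokines and matrix-degrading enzymes.

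Expression was given as FPKM (fragments mapped to a transcript, scaled to its length and to the size of the library) for 22442 gene records. A record is 1 assembled gene of the table, and some gene names have several. A filter that asked for a 12-library mean of 1 FPKM or more left 11611 records, which limma compared on log2(FPKM + 1), and every fold change below is a difference on that scale, which understates the change of low genes. Of these, 1025 records (8.83%) switched between 2 levels or had 1 library far from the other 2 within FCA or within AT01, and the remaining 10586 are described. The sums of FPKM of the 6 libraries lay between 284240 and 309696. No read counts belong to the values, so that the depth behind a single value is unknown. The 18 markers of synovial fibroblasts found in the table all had a mean of at least 1 FPKM, with a summed level of 12404 to 12846 FPKM in FCA and 12256 to 12738 in AT01. The Thy1 record, a fibroblast surface marker, was at 152 to 158 FPKM in FCA and 142 to 146 in AT01. Markers of lymphocytes summed to 0.27 FPKM at most, and those of macrophages to 7.02 to 22.2 in FCA and 7.39 to 20.7 in AT01. Of 9 macrophage names in the table, 2 had a mean of at least 1 FPKM. Cd14, whose record switched, was at 4.60 to 18.8 FPKM in FCA and 3.72 to 17.6 in AT01. Endothelial markers summed to 56.0 to 63.0 FPKM in FCA and 50.8 to 51.7 in AT01, with Cdh5, Emcn and Tie1 at 0. Of 11 endothelial names in the table, 3 (Eng, Egfl7 and Flt1) had a mean of at least 1 FPKM, and Kdr was at 0.08 at most. Smooth muscle and pericyte markers summed to 87.4 to 93.8 FPKM in FCA and 81.4 to 83.2 in AT01, and those of skeletal muscle to 7.81 to 13.6 and 6.07 to 6.61. Of 7 skeletal muscle names in the table, 2 had a mean of at least 1 FPKM, and Myod1 was at 5.07 to 10.3 FPKM in FCA and 3.40 to 3.82 in AT01. Adipocyte markers summed to 91.4 to 115 FPKM in FCA and 106 to 121 in AT01, and chondrocyte markers to 7.83 to 9.63 and 5.06 to 9.45. Of 11 chondrocyte names in the table, 3 had a mean of at least 1 FPKM. The sums for macrophages, endothelium, skeletal muscle and chondrocytes thus rest on a few genes. The part of other cells in any result was not tested, and fewer cells of a type and less RNA per cell cannot be told apart here.

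At 0.1 µM the records past the criterion of the study (a change above 1 in either direction on the log2 scale, at an unadjusted p below 0.05) numbered 55 higher (0.474%) and 33 lower (0.284%) of 11611. Of these 88 records, 41 switched within a group. That left 27 higher (0.255% of 10586) and 20 lower (0.189%). After Benjamini-Hochberg adjustment over all records tested, 2 records (0.0189%) were higher and 9 (0.0850%) lower at an adjusted p under 0.05 (limma), and none of them switched. With the replicate number as a block the adjusted count was 2, LOC108351137 and LOC100909878. At an unadjusted p under 0.05 alone, 264 records (2.49%) were higher and 452 (4.27%) lower. Where the mean reached 10 FPKM or more (3992 records), 73 were higher (1.83%) and 243 lower (6.09%). The groups did not overlap in 638 higher (6.03%) and 902 lower records (8.52%), and the median log2 fold change of the 10586 records was 0.0013, with 50.3% of them above 0 and 49.6% below.

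**Figure D1:**
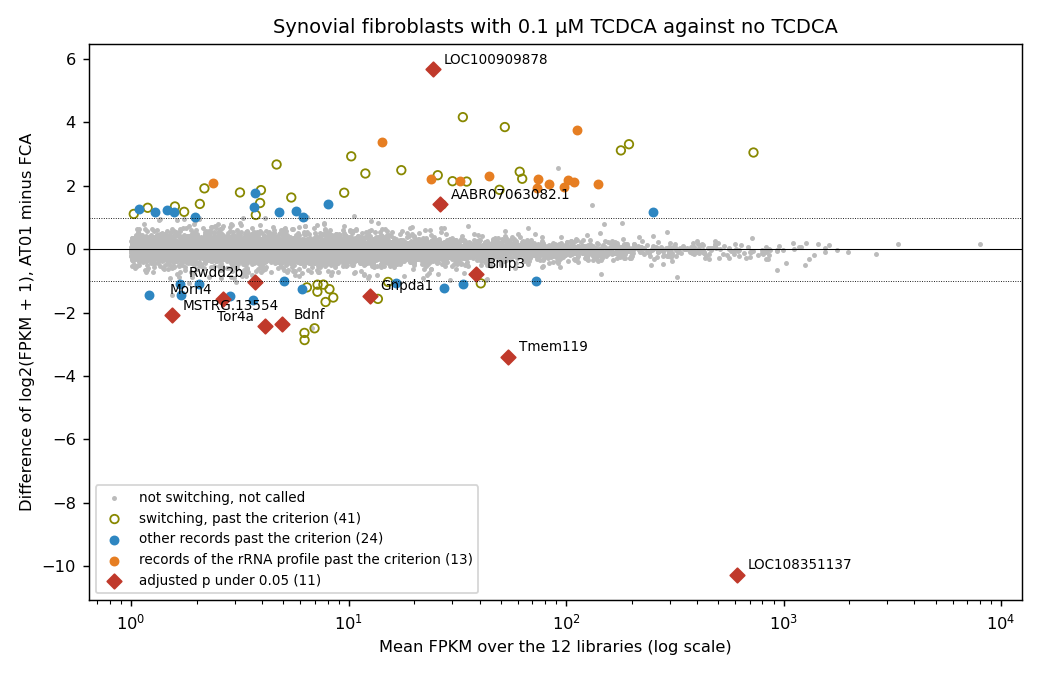
Difference of log2(FPKM + 1) between AT01 and FCA (vertical axis) against the mean FPKM over the 12 libraries (horizontal log axis), 1 point a record. Dotted lines mark a difference of 1 and -1. Diamonds are the 11 records with an adjusted p under 0.05, open circles the 41 records that pass the criterion of the study but switch within a group, and orange points 13 records of the rRNA profile.

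The 11 records with an adjusted p under 0.05 were led by a pair of records for copies of housekeeping genes. LOC108351137, annotated as glyceraldehyde-3-phosphate dehydrogenase, was at 1222, 1285 and 1229 FPKM in the 3 FCA libraries and was listed at 0 in all 3 AT01 libraries (adjusted p = 7.7e-08, limma). It was listed at 0 in all AT10 libraries too, and at 1155 to 1258 FPKM in AT1. The record of Gapdh itself, the glycolytic enzyme, was at 375 to 435 FPKM in FCA and 346 to 440 in AT01, with a log2 fold change of -0.08 (SE 0.11, adjusted p = 0.88, limma). LOC100909878, annotated as a 40S ribosomal protein S15a-like gene, went the other way. It was listed at 0 in all FCA libraries and was at 57.9, 46.7 and 47.1 FPKM in AT01 (adjusted p = 3.0e-05, limma). In AT1 and in AT10, 1 library each was at 0 and the others were at 25.0 to 45.4 FPKM. The Rps15a record was at 161 to 169 FPKM in FCA and 151 to 197 in AT01. Reads of near-identical copies can be divided between records during alignment and assembly, so both of these values are uncertain, and no fold is given against a group at 0.

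Tmem119, a membrane protein known from bone formation and from microglia, was at 92.7, 104 and 89.2 FPKM in FCA and at 9.68, 6.76 and 8.13 in AT01. The log2 fold change was -3.40 (SE 0.14, adjusted p = 0.0017, limma). Its AT1 libraries were split, with 5.11 and 6.55 FPKM in replicates 1 and 2 and 81.4 in replicate 3, whereas those of AT10 were at 79.6 to 85.7 FPKM.

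Bdnf, a neurotrophin whose gene is a known CREB target, was at 6.88, 6.59 and 7.89 FPKM in FCA and at 0.73, 0.47 and 0.51 in AT01. Its log2 fold change was -2.37 (SE 0.11, adjusted p = 0.0031, limma). One replicate of AT1 (0.75 FPKM) and 1 of AT10 (0.97) stood at the AT01 level, and the others were between 6.83 and 11.5 FPKM.

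Gnpda1, which turns glucosamine-6-phosphate back into fructose-6-phosphate, was at 26.3, 24.2 and 24.9 FPKM in FCA and at 9.22, 7.78 and 8.30 in AT01. The difference was -1.47 on the log2 scale (SE 0.085, adjusted p = 0.0069, limma). All 6 libraries of the other doses were at the lower level, from 6.98 to 9.75 FPKM. Morn4, a protein of the MORN repeat family, was at 5.46, 5.96 and 5.58 FPKM in FCA and 1.2, 1.48 and 1.03 in AT01 (log2 fold change -1.58, SE 0.10, adjusted p = 0.012, limma). A record without a gene name, MSTRG.13554, was at 2.75 to 3.52 FPKM in FCA and listed at 0 in AT01 (adjusted p = 0.0052, limma).

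These 7 records shared a feature that the call did not use. Over the 12 libraries each stood at 2 separate levels with no value between them. Among all records tested, 525 did so, and in 8 of them the levels parted FCA from AT01 completely. The 8th of these was Tnfsf9, the ligand of 4-1BB, at 0.73, 0.44 and 0.98 FPKM in FCA and 5.16, 6.24 and 3.51 in AT01 (log2 fold change 1.78, SE 0.21, adjusted p = 0.13, limma). Without records at 2 levels, 4 of the 11 remained.

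The 4 others did not meet that definition. Tor4a, an ATPase of the torsin family, was at 11.9, 13.1 and 9.66 FPKM in FCA and 1.89, 0.86 and 1.32 in AT01. Its log2 fold change was -2.42 (SE 0.19, adjusted p = 0.025, limma), and all 6 libraries of the other doses were low as well, at 0.66 to 3.60 FPKM. Bnip3, a mitochondrial protein of the BCL2 family that is induced by hypoxia and takes part in mitophagy, was at 43.6, 41.4 and 41.2 FPKM in FCA and 24.4, 23.8 and 24.2 in AT01. The fall was 0.78 on the log2 scale (log2 fold change -0.78, SE 0.061, adjusted p = 0.025, limma). Each group had a narrow range, and the AT1 libraries (42.2 to 47.4 FPKM) and AT10 libraries (33.8 to 50.2 FPKM) all lay above AT01. Against AT1 alone Bnip3 was lower in AT01 (-0.85 on the log2 scale, adjusted p = 0.027, limma), whereas the differences from AT10 alone (-0.82, adjusted p = 0.59, limma) and from the mean of those doses (-0.84, adjusted p = 0.16, limma) did not pass.

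Rwdd2b, an RWD domain protein, was at 5.13, 4.37 and 4.37 FPKM in FCA and 1.65, 1.72 and 1.80 in AT01 (log2 fold change -1.04, SE 0.092, adjusted p = 0.039, limma), and 1 library of AT1 (1.94 FPKM) and 1 of AT10 (1.89) stood at the AT01 level. The remaining libraries of those doses were at 5.01 to 5.71 FPKM, so that Rwdd2b too had separate levels, with a gap below the limit of 1. AABR07063082.1, a gene known by its clone name alone, was the only higher one of these 4. It was at 13.5, 13.5 and 15.6 FPKM in FCA and 44.0, 38.3 and 37.3 in AT01 (log2 fold change 1.43, SE 0.099, adjusted p = 0.014, limma), and the other doses lay between the groups at 21.7 to 31.5 FPKM. For each of the 11 records the groups did not overlap, and the exact permutation test gave 0.1, the smallest p that 3 against 3 libraries can give.

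Many of these adjusted calls were lost in other settings, while each log2 fold change kept its sign. Bnip3 passed in 2 of 11 settings (adjusted p 0.020 to 0.47, limma or the F test), Rwdd2b in 2 of 11 (0.041 to 0.56) and Tor4a in 4 of 11 (0.023 to 0.49). For Bnip3 and Rwdd2b the call was lost whichever of the 6 libraries was left out. Morn4 passed in 6 of 11, AABR07063082.1 in 7, Bdnf and MSTRG.13554 in 8 each, Gnpda1 and LOC100909878 in 9 each and Tmem119 in 9 of 12, and LOC108351137 passed in all 12.

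**Figure D2:**
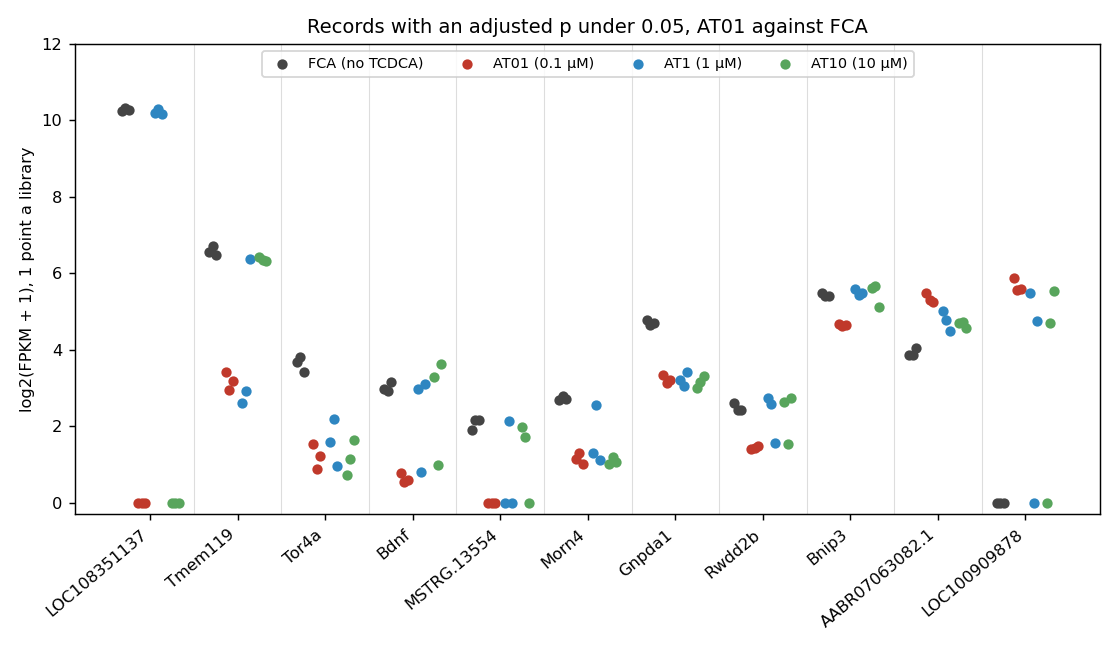
log2(FPKM + 1) of the 11 records with an adjusted p under 0.05, 1 point a library, by group. LOC108351137, Tmem119 and Bdnf jump between levels among the libraries of the other doses or between doses, whereas the 3 AT01 libraries of Bnip3 sit below all other libraries.

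Many of the immediate early genes were lower at 0.1 µM. These genes, most of them transcription factors, are transcribed within minutes of a growth factor or stress signal, and their mRNA is short lived. Of the 24 named genes, 21 had records that passed the filter on low values, and 20 records did not switch. At an unadjusted p under 0.05, 10 of these 20 (50.0%) were lower and none was higher, against 4.27% lower and 2.49% higher among all 10586 records. In 11 the groups did not overlap, all of them lower, against 8.52%. The median log2 fold change of the 20 records was -0.29, and 17 were below 0, against 49.6% of all records. None of them passed after adjustment over all records, where the smallest adjusted p was 0.18 (Egr1, limma).

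Egr1, a zinc finger transcription factor, was at 40.1, 43.2 and 41.9 FPKM in FCA and 22.3, 28.2 and 23.4 in AT01 (log2 fold change -0.74, SE 0.10, adjusted p = 0.18, limma). Nr4a1, an orphan nuclear receptor, was at 93.4, 96.9 and 98.9 FPKM in FCA and 74.9, 71.9 and 66.9 in AT01 (log2 fold change -0.43, SE 0.071, adjusted p = 0.29, limma). For both genes every AT01 library lay below every FCA library. Fos, a subunit of AP-1, was at 8.74, 15.0 and 8.45 FPKM in FCA and 5.41, 6.28 and 6.27 in AT01, and its partner Jun at 19.9, 22.8 and 22.7 in FCA and 18.2, 17.3 and 17.3 in AT01. Both were lower (log2 fold changes -0.71, SE 0.22, and -0.29, SE 0.080), and for Fos FCA replicate 2 was far above the other FCA libraries.

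Zfp36, which speeds the decay of cytokine mRNA, was at 37.8, 42.0 and 34.4 FPKM in FCA and 27.1, 30.5 and 29.8 in AT01. Cyr61, a secreted CCN protein that also stands among the YAP targets, had the largest difference of the family (log2 fold change -0.86, SE 0.25, adjusted p = 0.68, limma), at 465, 255 and 458 FPKM in FCA and 193, 218 and 213 in AT01. FCA replicate 2 was closer to AT01 than to the other FCA libraries. Btg2, an antiproliferative factor, was at 51.9 to 56.6 FPKM in FCA and 28.0 to 43.2 in AT01, and Myc, a growth regulator, at 22.6 to 26.2 and 19.8 to 20.6. Egr2 and Ier2, both regulators of transcription, had log2 fold changes of -0.55 (SE 0.16) and -0.28 (SE 0.077). The 10 others included Atf3 and Klf6, which did not pass the test (log2 fold changes 0.05 and 0.04, adjusted p = 0.97 and 0.95, limma).

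The other doses share the FCA libraries, so their values are given side by side only. The median log2 fold change of the 20 records was -0.33 for AT1 and -0.0053 for AT10, and 9 and 0 of them were lower at an unadjusted p under 0.05, against 5.70% and 4.34% of all records. A fit of the AT01 and AT10 libraries alone, which leaves FCA out, found 6 of the 20 lower in AT01 and none higher, against 2.16% lower and 2.69% higher among all records. The 6 were Egr1, Egr2, Btg2, Nr4a1, Jun and Myc. Egr1 had the largest difference (-0.85 on the log2 scale), which did not pass after adjustment (adjusted p = 0.30, limma). In the like fit of the AT01 and AT1 libraries 1 of the 20 was lower in AT01 and none higher, against 1.68% lower and 1.64% higher among all records. It was Cyr61, at 391, 421 and 375 FPKM in AT1 (log2 difference -0.93, adjusted p = 0.039, limma). Over all records that fit had 6 lower (0.0567%) and 4 higher (0.0378%) at an adjusted p under 0.05 (limma).

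**Figure D3:**
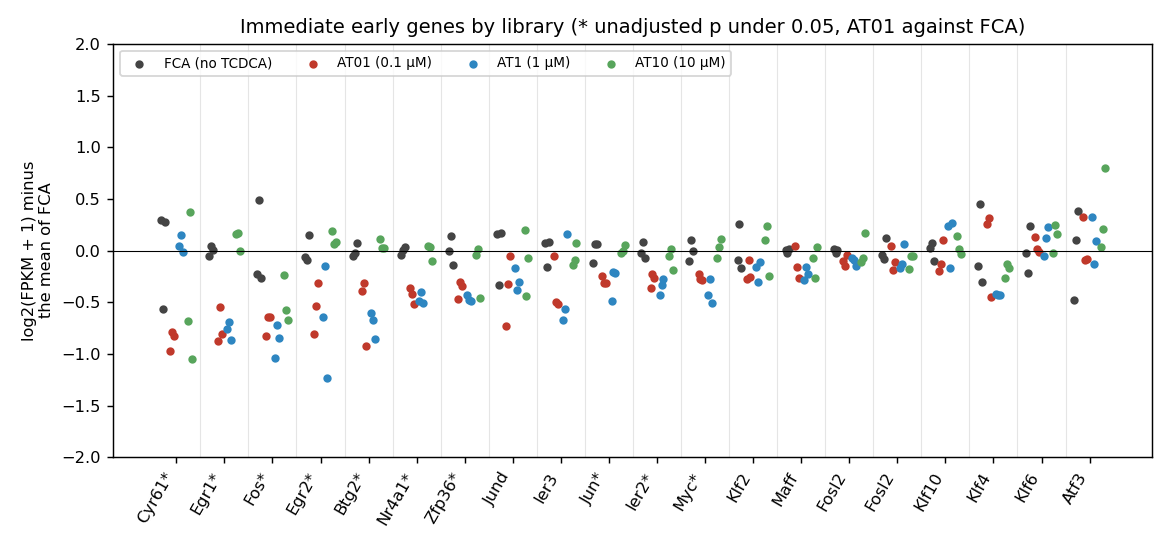
log2(FPKM + 1) of the 20 immediate early gene records, less the mean of the 3 FCA libraries, 1 point a library. AT01 points lie below 0 for all genes from Cyr61 to Btg2 and for Nr4a1 and Zfp36, AT1 points lie near them except for Cyr61, and AT10 points lie around 0 for most.

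The promoters of 5 of these lower genes are shown because 2 elements known to drive immediate early genes, the cAMP response element and the serum response element, can be looked for in them. Each sequence is the 250 bases before the RefSeq start of the gene (build GRCr8, 5′ to 3′ on the gene's strand). Capitals mark the full cAMP response element TGACGTCA in Ier2 (chr19:40399123-40399372, plus strand) and Btg2 (chr13:48087691-48087940, minus strand). In Zfp36 (chr1:92799109-92799358, minus strand) they mark the CArG box, which is the core of the serum response element. In Egr2 (chr20:21054442-21054691, minus strand) they mark a CArG box and the shorter site TGACG, which reads CGTCA here because it lies on the opposite strand, and in Nr4a1 (chr7:134259888-134260137, plus strand) 4 of the shorter sites, all of them also on the opposite strand as CGTCA.

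Ier2: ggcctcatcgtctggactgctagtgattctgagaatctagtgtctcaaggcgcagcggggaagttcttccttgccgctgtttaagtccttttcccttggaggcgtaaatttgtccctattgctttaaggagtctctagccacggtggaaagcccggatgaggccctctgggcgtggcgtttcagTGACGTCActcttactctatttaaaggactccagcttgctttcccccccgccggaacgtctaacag
Btg2: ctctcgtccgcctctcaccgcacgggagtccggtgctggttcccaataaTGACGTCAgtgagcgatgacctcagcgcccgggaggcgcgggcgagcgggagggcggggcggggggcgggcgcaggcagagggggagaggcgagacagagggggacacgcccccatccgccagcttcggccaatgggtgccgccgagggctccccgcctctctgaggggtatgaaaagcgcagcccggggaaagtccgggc
Zfp36: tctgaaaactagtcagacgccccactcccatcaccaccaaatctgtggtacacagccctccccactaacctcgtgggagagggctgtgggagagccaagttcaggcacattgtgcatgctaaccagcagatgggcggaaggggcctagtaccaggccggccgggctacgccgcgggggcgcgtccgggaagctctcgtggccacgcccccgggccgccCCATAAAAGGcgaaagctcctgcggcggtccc
Egr2: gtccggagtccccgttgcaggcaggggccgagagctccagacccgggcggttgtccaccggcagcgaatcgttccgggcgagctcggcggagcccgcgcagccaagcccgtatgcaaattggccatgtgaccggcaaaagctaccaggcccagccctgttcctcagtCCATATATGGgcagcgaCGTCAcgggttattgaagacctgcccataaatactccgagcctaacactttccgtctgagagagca
Nr4a1: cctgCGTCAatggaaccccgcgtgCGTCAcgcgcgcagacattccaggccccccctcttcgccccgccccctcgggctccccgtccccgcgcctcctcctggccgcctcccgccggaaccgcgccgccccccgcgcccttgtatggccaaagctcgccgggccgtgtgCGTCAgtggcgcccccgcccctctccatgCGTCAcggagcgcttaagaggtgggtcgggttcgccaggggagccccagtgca

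Of the 24 immediate early genes, 15 matched a RefSeq promoter. Counted on both strands, the full element was in 4 of them (26.7%), against 1.59% of all 33469 promoters of that length. They were Btg2, Ier2, Jund and Maff, and Jund and Maff are not among the lower genes named above. The shorter site, which lies within the full element, was in 9 (60.0%) against 18.2%, and the CArG box in 4 (26.7%) against 1.5%. Fosl1, Junb, Jund and Maff hold the shorter site and Klf6 the CArG box, and none of these is among the lower genes named. The promoters shown are a selection of lower genes with a match. Egr1, also lower, holds the shorter site and a CArG box and is not shown. Whether the elements go with the lower values was not tested. A match is a string of letters in this window and not a measured binding site.

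Among the 30 genes of the cAMP-PKA-CREB list, 21 records were described, 5 of them lower (23.8%) and none higher at an unadjusted p under 0.05, against 4.27% and 2.49% of all records. They were Bdnf, Egr1, Nr4a1, Fos and Sik1, a kinase that restrains CREB coactivators, and 3 of these 5 are also in the immediate early list. Sik1 was at 5.75 to 6.60 FPKM in FCA and 3.42 to 4.99 in AT01 (log2 fold change -0.41, SE 0.14, adjusted p = 0.72, limma). The median of the 21 records was -0.09.

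Genes of the extracellular matrix were lower in several lists, by small amounts, but not in all. Of 29 records of metalloproteinases, ADAMTS and inhibitors, 2 (6.90%) were higher and 1 (3.45%) lower at an unadjusted p under 0.05. Among all records 2.49% were higher and 4.27% lower. None of 18 records of collagen processing enzymes passed that threshold, although 15 of them were below 0. Of 18 records of collagen chains, 6 (33.3%) were lower and none higher at an unadjusted p under 0.05, against 4.27% and 2.49% of all records. Of the 18, 16 were below 0, against 49.6% of all records, and the median log2 fold change was -0.20. In 9 the groups did not overlap with AT01 lower, against 8.52%. Col6a1, a chain of the microfibrillar type VI collagen, was at 57.3, 57.5 and 58.2 FPKM in FCA and 44.3, 46.1 and 46.7 in AT01 (log2 fold change -0.33, SE 0.059, adjusted p = 0.35, limma). Col5a1, which controls the width of collagen fibrils, was at 99.99, 112 and 113 FPKM in FCA and 82.8, 73.4 and 84.5 in AT01 (log2 fold change -0.43, SE 0.089, adjusted p = 0.43, limma). Both groups were apart in each case.

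The basement membrane chains Col4a1 and Col4a2, whose genes share a promoter region, were lower by like amounts (log2 fold changes -0.32, SE 0.10, and -0.29, SE 0.075). The other chains past the threshold were Col5a3 (-0.44, SE 0.12) and Col6a3 (-0.27, SE 0.076). Col1a1, the main fibrillar collagen, was at 900 to 1072 FPKM in FCA and 721 to 904 in AT01, and did not pass (log2 fold change -0.30, adjusted p = 0.72, limma). For AT1 and AT10 the medians of the 18 records were -0.07 and -0.28, and 6 and 8 records were lower at an unadjusted p under 0.05, against 5.70% and 4.34% of all records.

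Of 30 records of proteoglycans and matricellular proteins, 4 (13.3%) were lower and 1 (3.33%) higher at an unadjusted p under 0.05, against 4.27% and 2.49% of all records, so that the higher share was near that of all records. The lower count was 0 without AT01 replicate 2, 1 without AT01 replicate 3 or FCA replicate 1, and 2 without FCA replicate 2. Lum (lumican), a small proteoglycan that binds collagen fibrils, was the higher one, at 595, 603 and 625 FPKM in FCA and 695, 736 and 906 in AT01 (log2 fold change 0.35, SE 0.11, adjusted p = 0.72, limma). Dcn (decorin), another small proteoglycan, was not called, but its AT01 libraries (1324 to 1340 FPKM) lay above those of FCA (1071 to 1280). The groups did not overlap in 2 higher and 8 lower of the 30 records, against 6.03% and 8.52% of all records. Tnc (tenascin C), a matrix protein of inflamed joints, was at 743, 668 and 733 FPKM in FCA and 664, 536 and 580 in AT01 (log2 fold change -0.27, SE 0.10, adjusted p = 0.72, limma). Acan, Tnxb and Fbln2, which encode the cartilage proteoglycan aggrecan, tenascin X and fibulin 2, were the other lower records, with log2 fold changes of -0.35, -0.29 and -0.24.

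Of 12 integrin records, 3 (25.0%) were lower and none higher at an unadjusted p under 0.05, against 4.27% and 2.49% of all records, and the 3 were alpha chains. Itga5, the alpha chain of the fibronectin receptor, was at 43.9, 36.9 and 39.0 FPKM in FCA and 29.7, 26.4 and 28.3 in AT01 (log2 fold change -0.49, SE 0.092, adjusted p = 0.37, limma). Itga3 and Itga7, which pair with beta 1 to bind laminin, had log2 fold changes of -0.37 (SE 0.065) and -0.32 (SE 0.11). The median of the 12 was -0.01, near that of all records. Among 18 records of contractile and myofibroblast genes, Acta2, smooth muscle actin, and Smtn (smoothelin) were lower (11.1%, against 4.27% of all records) and none was higher. Acta2 was at 370, 317 and 263 FPKM in FCA and 185, 247 and 239 in AT01 (log2 fold change -0.50, SE 0.17, adjusted p = 0.72, limma). Ctgf, a CCN protein close to Cyr61, was at 624 to 756 FPKM in FCA and 549 to 678 in AT01 and did not pass the test (log2 fold change -0.15, adjusted p = 0.82, limma).

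In the TGF-beta and BMP pathway, 33 records were described, of which 8 (24.2%) were lower and 2 (6.06%) higher at an unadjusted p under 0.05, against 4.27% and 2.49% of all records, with a median of -0.14. This count of lower records moved with the setting. It was 3 with a replicate block, 4 without FCA replicate 1 or without AT01 replicate 2, and 4 with a parametric F test such as Ballgown uses. Tgfb3, the ligand TGF-beta 3, was at 49.8, 55.3 and 43.2 FPKM in FCA and 38.3, 20.3 and 19.6 in AT01 (log2 fold change -0.96, SE 0.27, adjusted p = 0.68, limma). AT01 replicate 1 lay between FCA and the other AT01 libraries. The latent TGF-beta binding proteins Ltbp1, Ltbp2 and Ltbp3, which hold the ligand in the matrix, were all lower (-0.27, -0.27 and -0.31). Tgfbi, a matrix protein named for its induction by TGF-beta, was at 7.80, 8.21 and 6.91 FPKM in FCA and 5.19, 5.28 and 5.83 in AT01 (log2 fold change -0.42, SE 0.092, adjusted p = 0.47, limma). Of the receptors, Acvr1 and the coreceptor Eng were lower (-0.21 and -0.28). The repressor Ski was lower (-0.29), its paralog Skil higher (0.25), and Smad2, a signal transducer, higher at 0.29 (SE 0.087).

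**Figure D4:**
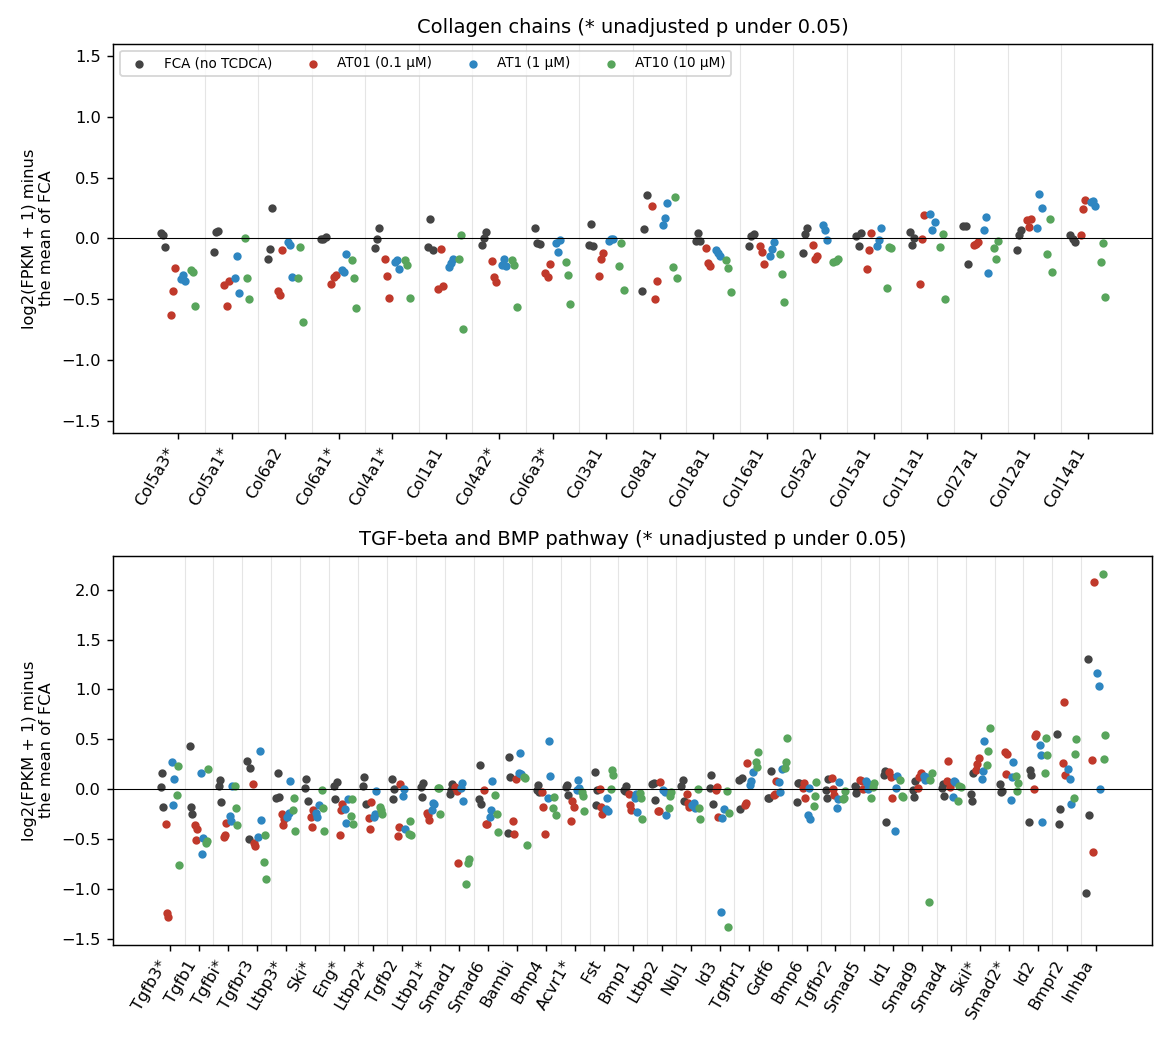
log2(FPKM + 1) of 18 collagen chain records (top) and 33 records of the TGF-beta and BMP pathway (bottom), less the mean of the 3 FCA libraries, 1 point a library. AT01 points lie below 0 for the asterisked collagen chains, those with an unadjusted p under 0.05. In the bottom panel 2 AT01 points of Tgfb3 stand below -1 and the third lies at about the level of other genes.

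Some records were higher at 0.1 µM. Gpx3, the secreted glutathione peroxidase, was at 118, 211 and 130 FPKM in FCA and 378, 321 and 305 in AT01, and so the groups did not overlap. The log2 fold change was 1.17 (SE 0.24, adjusted p = 0.42, limma). It was the single call of the criterion among 37 records of antioxidant enzymes, of which 2 (5.41%) were higher and 1 (2.70%) lower at an unadjusted p under 0.05, against 2.49% and 4.27% of all records. Sod2, the mitochondrial superoxide dismutase, was the other higher one, at 196, 203 and 230 FPKM in FCA and 327, 252 and 258 in AT01 (log2 fold change 0.41, SE 0.13, adjusted p = 0.7, limma), and Gstm1, a glutathione transferase, was lower (-0.23, SE 0.090). At the other doses Gpx3 was split, with 363, 127 and 346 FPKM in AT1 and 290, 309 and 114 in AT10, so that 1 library of each stood at or near the FCA level.

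Of the inflammatory cytokines and chemokines, 17 records were described, of which 1 (5.88%) was higher and 1 lower at an unadjusted p under 0.05, against 2.49% and 4.27% of all records. Il6 was at 81.6, 108 and 128 FPKM in FCA and 148, 125 and 178 in AT01 (log2 fold change 0.51, SE 0.21, adjusted p = 0.72, limma). Il11, of the same cytokine family, was at 43.9, 20.3 and 30.7 FPKM in FCA and 21.0, 14.1 and 17.5 in AT01 (-0.77, SE 0.30, adjusted p = 0.72, limma). The groups overlapped for both genes. Vcam1, an adhesion molecule for leukocytes, was at 3.64, 2.55 and 3.07 FPKM in FCA and 4.48, 4.85 and 4.85 in AT01 (log2 fold change 0.49, SE 0.12, adjusted p = 0.57, limma). None of 19 NF-kB, 14 interferon-stimulated, 15 antigen presentation or 15 complement records passed an unadjusted p of 0.05.

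Among the genes for receptors and transporters of bile acids, Gpbar1 was at 0.06 FPKM at most in all 12 libraries. Of 9 records described, 2 (22.2%) were higher at an unadjusted p under 0.05, against 2.49% of all records. They were Slco2a1 and 1 of the 2 tested records of Nr3c1, MSTRG.8116. The count was 0 without AT01 replicate 1, without AT01 replicate 2 and with a replicate block, and 1 without AT01 replicate 3, FCA replicate 1 or FCA replicate 2. Slco2a1, which carries prostaglandins, was at 2.91, 3.09 and 4.67 FPKM in FCA and 6.14, 5.14 and 4.77 in AT01 (log2 fold change 0.49, SE 0.17, adjusted p = 0.72, limma). The glucocorticoid receptor Nr3c1 had 2 records that were tested. MSTRG.8116 was at 7.15, 5.39 and 7.74 FPKM in FCA and 8.89, 9.48 and 8.74 in AT01 (log2 fold change 0.38, SE 0.13, adjusted p = 0.72, limma). The record MSTRG.8108 was at 4.26, 15.1 and 3.17 FPKM in FCA and 2.84, 3.76 and 4.86 in AT01 and counts as switching, and the sum of the records by name gave a log2 fold change of -0.09. None of the 17 records of glucocorticoid receptor targets passed an unadjusted p of 0.05, and their median was 0.0069.

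Genes of mitosis leaned to higher values. Of 34 records 30 were above 0, against 50.3% of all records, with a median of 0.15, and 4 (11.8%) were higher and none lower at an unadjusted p under 0.05, against 2.49% and 4.27%. Ccnb1, the cyclin of entry into mitosis, was at 25.6, 23.8 and 23.8 FPKM in FCA and 29.6, 28.8 and 27.6 in AT01 (log2 fold change 0.22, SE 0.069, adjusted p = 0.7, limma). The others were Ndc80, Hmmr and Cenpe (0.46, 0.37 and 0.38), all of them proteins of the spindle or kinetochore. The count was 0 without AT01 replicate 2, 11 without AT01 replicate 1, 1 without FCA replicate 2, and 2 without AT01 replicate 3 or FCA replicate 1. The medians at AT1 and AT10 were 0.19 and 0.13. At those doses 13 and 11 of the 34 records were higher than in the same FCA libraries at an unadjusted p under 0.05, and none was lower. The share of all records that were higher at those doses is not given here.

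Stress and metabolic genes gave few calls. Trib3, a pseudokinase induced by ATF4, was at 1.19, 1.38 and 1.58 FPKM in FCA and 2.96, 3.04 and 2.48 in AT01 (log2 fold change 0.68, SE 0.11, adjusted p = 0.29, limma). It was the only one of 18 amino acid synthesis and ATF4 target records past the threshold (5.56%, against 2.49% higher of all records). Ndufa10, a subunit of respiratory complex I, was at 30.6, 30.0 and 28.8 FPKM in FCA and 18.8, 19.3 and 18.3 in AT01 (log2 fold change -0.64, SE 0.064, adjusted p = 0.077, limma), and it was alone among 65 records of oxidative phosphorylation (1.54%, against 4.27% lower of all records). Its other libraries were split, at 26.7, 30.3 and 19.1 FPKM in AT1 and 29.0, 19.6 and 16.9 in AT10. Mvk and Mvd, enzymes of the mevalonate pathway of cholesterol synthesis, were lower (-0.55 and -0.20). Of the 20 records of cholesterol synthesis and uptake 3 were lower (15.0%, against 4.27% of all records), while the median of the 20 was 0.04. The Notch modifiers Lfng and Rfng were lower (-0.64 and -0.43) among 6 records of that pathway (33.3%, against 4.27% of all records). Cytosolic ribosomal proteins had 1 lower record of 71 (1.41%, against 4.27% of all records), Rpl14, of the large subunit (-0.22). Over all 51 lists, 20 held lower records only, 7 higher only, 14 both, 9 none past the threshold, and 1, the mitochondrially encoded genes, had no record that did not switch.

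Other records past the criterion of the study were mostly low. Trib2, a pseudokinase, was at 5.80, 5.79 and 5.69 FPKM in FCA and 0.68, 1.53 and 1.57 in AT01 (log2 fold change -1.61, SE 0.18, adjusted p = 0.11, limma). St6galnac4, a sialyltransferase, was at 39.9, 40.2 and 36.7 FPKM in FCA and 15.0, 19.9 and 14.3 in AT01 (-1.21, SE 0.14, adjusted p = 0.11, limma). In AT10 its mean was 16.7 FPKM and in AT1 37.5. Psmb5, the catalytic proteasome subunit of chymotrypsin-like activity, was at 57.6, 148 and 119 FPKM in FCA and 54.6, 54.1 and 41.0 in AT01 (-1.01, SE 0.36, adjusted p = 0.72, limma), so FCA replicate 1 stood near AT01. Marcks, an actin-binding substrate of protein kinase C, was at 5.85 to 7.32 FPKM in FCA and 0.49 to 5.04 in AT01.

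For 2 of the lower genes a minor record carried the call. The Ppa1 record MSTRG.10608 (inorganic pyrophosphatase) was at 2.62 to 3.42 FPKM in FCA and 0.22 to 0.84 in AT01, and the Mob3a record MSTRG.15563 at 1.5 to 2.87 and 0 to 0.69. The larger Ppa1 record was at 57.0 to 64.3 FPKM in FCA and 55.8 to 59.5 in AT01, and the larger Mob3a record at 6.63 to 8.14 and 4.70 to 9.51. AC130253.1, known by its clone name, overlapped between the groups (3.36 to 9.48 and 0.42 to 3.53 FPKM). Closest to the threshold of the fold change, Psmb5 and RGD1562378, a histone H4 variant (-1.01 each), and Pars2, the mitochondrial prolyl-tRNA synthetase (1.01), lay just inside. Otub2, a deubiquitinase (1.00 by rounding), Ptrhd1, of the peptidyl-tRNA hydrolase family (0.97), and Tgfb3 (-0.96) lay just outside.

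Other genes that the study followed did not pass the test here. By quantitative PCR on the same batch of cells, the study reported higher Srsf9, Cstb, Gapdh and Gpx3 mRNA at this dose. Its western blots gave higher Srsf9 and Gpx3 protein. From these RNA-seq libraries the study also listed LOC108351137 (as GAPDH), Cstb and Gpx3 as differentially expressed at this dose. LOC108351137 was lower and Gpx3 higher there. The paper describes its quantitative PCR of Gapdh and Cstb as inconsistent with its RNA-seq. Cstb, the cathepsin inhibitor cystatin B, was at 180, 180 and 186 FPKM in FCA and 75.9, 80.1 and 191 in AT01, and counts as switching (log2 fold change -0.79, adjusted p = 0.72, limma). Srsf9, a splicing factor, was at 14.2 to 15.7 FPKM in FCA and 13.5 to 17.5 in AT01 (0.05, adjusted p = 0.93, limma). Among the records that switched, the largest differences show how a group mean can arise from only some of its libraries. LOC100363537 was at 147 to 180 FPKM in FCA and at 163, 0.64 and 1.12 in AT01. Chchd2, a mitochondrial protein, was at 82.2 to 93.5 in FCA and at 0, 84.8 and 0 in AT01, and LOC100362366 at 0 in FCA and at 83.7, 0 and 83.2 in AT01. Rps15al4, another S15a-like gene, was at 29.8, 0 and 0 in FCA and 63.2, 51.3 and 52.4 in AT01.

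Of the 27 higher calls of the criterion, 13 were records of ribosomal RNA genes or followed them. The libraries were made from poly(A) selected RNA. By name, 8 records tested belong to rRNA genes: 4 of 5.8S rRNA, 1 of pRNA, a promoter-associated RNA, and 3 of LOC257642, an rRNA promoter binding protein. Their summed level was 184, 202 and 109 FPKM in FCA and 1038, 458 and 353 in AT01, a ratio of the means of 3.73, and of 2.45 without AT01 replicate 1. Of the 8, 4 were higher by the criterion and 2 switched. A 5.8S record, MSTRG.57, was at 42.3, 56.9 and 23.7 FPKM in FCA and 355, 146 and 108 in AT01 (log2 fold change 2.17, SE 0.53, adjusted p = 0.57, limma). The pRNA record was at 8.47, 13.5 and 5.66 FPKM in FCA and 37.3, 45.5 and 49.9 in AT01 (2.21, SE 0.29, adjusted p = 0.16, limma). LOC257642 (MSTRG.5779) was at 40.5, 43.7 and 19.9 FPKM in FCA and 267, 123 and 85.2 in AT01 (2.07, SE 0.50, adjusted p = 0.57, limma).

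Another 10 records, named AABR07063425.2, AABR07063462.1 and AABR07000402.1 after clones or not named at all, were chosen after their values were seen because they followed the rRNA genes, and 9 of them were higher by the criterion. All 18 together summed to 252 to 500 FPKM in FCA and to 1233 to 3183 in AT01. They made up 0.0845 to 0.164% of a library's FPKM in FCA and 0.434 to 1.03% in AT01. AT1 libraries lay at 781 to 1292 FPKM and AT10 libraries at 307, 258 and 1159, so AT10 replicate 3 stood near the AT01 libraries and the other 2 near FCA. Without the 18 records, 14 records remained higher by the criterion in place of 27, beside the 20 lower. Because the records were picked by their values, no test is given, and the part of RNA selection or of library quality in their level was not tested.

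**Figure D5:**
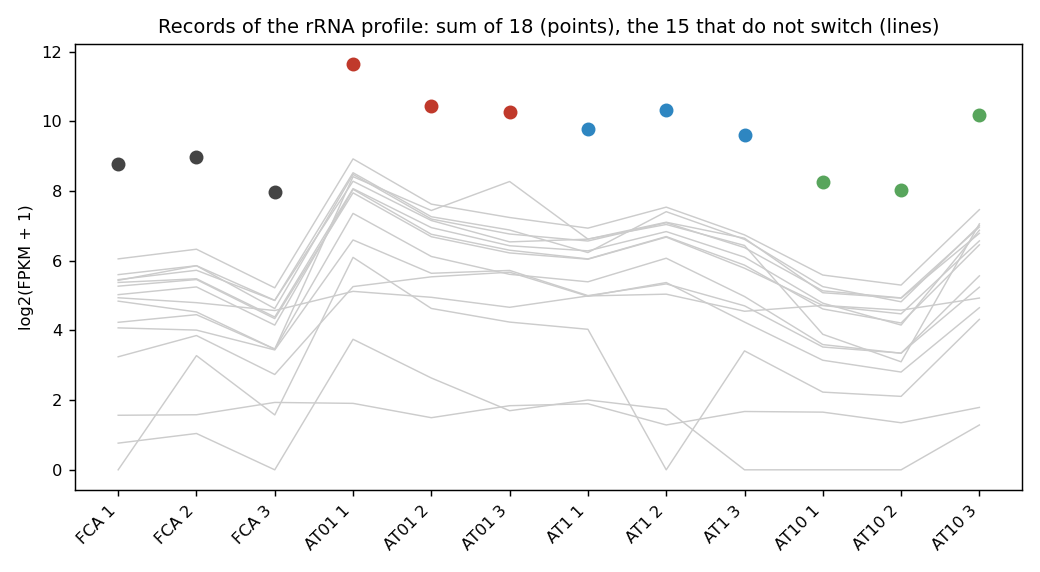
Level of the 18 records of the rRNA profile in each of the 12 libraries, as log2(FPKM + 1). Points are the sum of the 18 records, coloured by group as in the other plots, and grey lines are the 15 records that do not switch. The 3 AT01 libraries have sums of 1233 to 3183 FPKM, above all FCA libraries, and AT10 replicate 3 stands apart from AT10 replicates 1 and 2.

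Beside these and the higher records described above, the remaining higher calls were low, and those named here were chosen after their values were seen. Htr2a, a serotonin receptor, was at 2.96, 4.4 and 3.66 FPKM in FCA and 10.7, 12.4 and 6.59 in AT01 (log2 fold change 1.19, SE 0.24, adjusted p = 0.42, limma), with means of 4.76 at AT1 and 4.67 at AT10. Rnf103, an E3 ubiquitin ligase of the ER membrane, was at 1.14 to 1.75 FPKM in FCA and 3.00 to 6.88 in AT01 (1.33, SE 0.27). Tbc1d14, a regulator of Rab proteins in autophagy, was at 2.63 to 4.69 FPKM in FCA and 7.79 to 8.37 in AT01 (1.03, SE 0.17). In each of these 3 genes the AT01 libraries lay above all FCA libraries.

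Against the mean of AT1 and AT10, in a fit of the 9 TCDCA libraries, 2 records that do not switch were higher (0.0189%) and 2 lower (0.0189%) at an adjusted p under 0.05 (limma). At an unadjusted p under 0.05, 244 records (2.30%) were higher and 246 (2.32%) lower. LOC24906, annotated as RoBo-1, was 1 of the lower records. It was at 9.46, 10.95 and 8.82 FPKM in FCA and 7.33, 6.77 and 6.31 in AT01, with means of 11.3 at AT1 and 10.4 at AT10.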

How the data were processed

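Poly(A) RNA of 12 libraries (3 each of FCA, AT01, AT1 and AT10) was sequenced by the study. The submitters' notes name cutadapt, HISAT2, StringTie and edgeR, and the paper's methods name HISAT2, StringTie and Ballgown. The authors deposited FPKM per gene record, 22442 records in 1 column per library. The genome build and whether counting used strand are not given in the sources used here, and libraries were made with dUTP. No read counts were used, so the depth behind a value is unknown and no counting interval is given. Library groups came from the sample titles.

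Values were transformed as log2(FPKM + 1), a pseudocount of 1. Low records, whose 12-library mean was under 1 FPKM, were left out, and limma 3.58.1 (R 4.3.3, lmFit, eBayes with trend) was fitted to FCA and AT01 alone, with Benjamini-Hochberg adjustment over 11611 records. Calls were an adjusted p under 0.05, or the criterion of the study. A two-sided exact permutation test of 3 against 3 libraries cannot go below 0.1. A record switched where the widest gap of its 12 sorted log2 values was at least 1, exceeded the range of either level, left at least 2 libraries on each side and fell within FCA or AT01, or where 1 library of a group stood at least 1 from the other 2 and these lay within 0.25 of that distance of each other. Named were records with an adjusted p under 0.05, the 12 largest calls of the criterion in each direction, up to 4 members per list with the smallest p, genes of the study and 4 switching records. The members, lists and the definition of switching records were chosen with earlier results of these data known, so that no list is independent evidence. The pairing of replicate numbers was checked by the correlation of deviations from group means (r = 0.012, 0.042 and 0.028), none of which reached the 0.1 set for pairing. Promoters came from RefSeq (GRCr8). Scripts were tested on simulated data. Other settings tried were the pseudocount, filters on low values, 1 fit over 12 libraries, the parametric F test that Ballgown uses, scaling by the median of ratios, eBayes without trend, sums by gene name, a replicate block and each library left out. Python 3.11.15, NumPy 2.4.6, pandas 2.3.3, SciPy 1.17.1 and Matplotlib 3.10.9 were used. The result of 1 listed gene is not reported here.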

Additional observations from a re-analysis of the deposited data

Results flagged for a closer look

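4 records differed between AT01 and the mean of AT1 and AT10 at an adjusted p under 0.05 (limma, 9 TCDCA libraries), which is a test of the difference between dose effects because FCA cancels out. A second Pdzrn3 record, MSTRG.12859 (an E3 ubiquitin ligase gene), was 1.86 higher in AT01 on the log2 scale, at 4.23, 3.37 and 3.03 FPKM against means of 0.23 and 0.27 at AT1 and AT10. The larger Pdzrn3 record, MSTRG.12858, was at 32.9 to 75.7 FPKM in FCA and 39.96 to 74.5 in AT01. Prorsd1, a prolyl-tRNA synthetase-associated domain gene, was 1.27 higher, at 4.15 to 4.58 FPKM in AT01, with a mean of 0.04 FPKM at AT1 and 3.86 at AT10. Its difference thus lay mostly against AT1. LOC108351137 had a difference of -5.11 on log2(FPKM + 1), which is not a fold, because it was listed at 0 in AT01. It was listed at 0 in AT10 too and at a mean of 1193 FPKM in AT1, so that AT01 differed from AT1 alone. LOC24906 was lower than both other doses (log2 difference -0.60), with means of 11.3 FPKM at AT1 and 10.4 at AT10. Groups of 3 libraries are too small for a test of single outlying libraries.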

How the results depend on the processing

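The 47 calls of the criterion (27 higher, 20 lower) became 74 (42 and 32) with a pseudocount of 0.1 and 22 (15 and 7) with a mean of at least 10 FPKM. Counting switching records gave 88 (55 and 33), leaving out the 18 records of the rRNA profile gave 14 higher, and the parametric F test that Ballgown uses gave 16 higher. With 1 library left out the total ran from 47 to 64, higher calls from 24 to 35 and lower calls from 16 to 31. Without AT01 replicate 1 lower calls (28) outnumbered higher ones (24), and without AT01 replicate 2 there were 31 lower. The 11 records with an adjusted p under 0.05 became 7 at a mean of at least 10 FPKM, 5 in 1 fit over 12 libraries, 1 by the Ballgown F test, 4 without records at 2 levels, and 7 to 12 with 1 library left out, 7 without any one FCA replicate. The 4 differences from the other doses became 3 to 10 with 1 of the 9 TCDCA libraries left out: 9 and 10 without AT01 replicates 1 and 3, 7 without AT1 replicate 3, and 7 and 8 without AT10 replicates 2 and 3. Lower records of the TGF-beta and BMP pathway (8) were 4 by the Ballgown F test, 5 with median-of-ratios scaling or eBayes without trend, and 4 to 8 with 1 library left out, while those of immediate early genes stayed at 7 to 11 and of collagen chains at 4 to 7. The cause of these shifts was not tested.

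Whether replicate numbers mark shared cultures or days is not stated, and their correlations did not reach 0.1. With a replicate block the adjusted count fell to 2, the differences from the other doses to 2, the TGF-beta count to 3, and the calls of the criterion were 48. Of single genes, Srsf9 ran from -0.024 to 0.15 on the log2 scale with 1 library left out, being below 0 without AT01 replicate 2. The Nr3c1 record MSTRG.8108 ran from -0.95 to 0.020, above 0 without FCA replicate 2, and Nr3c1 summed by name was at -0.088. Depth is unknown, so no limit of detection can be set. The settings on switching records, 2 levels and the rRNA profile, those of the lists, and the leaving out of AT1 and AT10 libraries were chosen after seeing the data.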
